A study of Danio rerio with 19 samples.

Results

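Strong-GFP δ-cells, called GFPhigh, were compared with β-cells from the islets of adult zebrafish whose β-cells had not been ablated. The members were the 3 libraries labelled CTL_GFPhigh and the 7 labelled CTL_Beta, 10 of the 19 RNA-seq libraries in the series, and the comparison covered all 31901 gene IDs in their count tables. The other libraries were 6 of bihormonal cells, sorted from fish that had regrown cells after ablation with nifurpirinol, and 3 of δ-cells with weak GFP, called GFPlow. They entered the fit to share the estimate of the spread. They also counted in the scaling and in the filter on mean counts. All groups carried the transgenes Tg(sst1.1:eGFP) and Tg(ins:NTR*-P2A-mCherry), in which a fragment of the sst1.1 promoter drives GFP and the insulin promoter drives a nitroreductase together with mCherry. GFPhigh cells were GFP-positive and mCherry-negative with strong green fluorescence, and β-cells were mCherry-positive. Both groups came from fish of both sexes, 6 to 10 months old, that spent 18 h in 0.16% DMSO as the vehicle control and were then kept, by the series' design text, as long as the ablated fish. Each library was made from cells sorted by FACS out of the main islets of 2 to 4 pooled fish, with low-input cDNA synthesis (SMART-Seq2), and the study calls the replicates independent. The sst1.1 reporter limits GFPhigh as a model of one cell type, since the same transgene labels sst2 δ-cells weakly and the gate is drawn on brightness. By in situ hybridization in embryos the study found sst2 transcripts only in weakly green cells, and it regards GFPhigh as a pure population.

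δ-cells secrete somatostatin, which acts on neighbouring islet cells and restrains the release of insulin and glucagon. β-cells secrete insulin when glucose enters through a transporter, is phosphorylated and burned, and the resulting ATP closes a potassium channel (KATP), so that the membrane depolarises, calcium flows in and hormone granules fuse. In mammals both types arise from endocrine progenitors that share many transcription factors: Hhex maintains δ-cells, while Pdx1, Nkx6.1 and Mnx1 belong to the β-cell programme. Pdx1 is also expressed in a subset of mouse and human δ-cells. Zebrafish have several somatostatin genes, of which sst1.1 and sst2 mark separate δ-cells.

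Total counts were 9631886 to 11972983 in GFPhigh and 8373496 to 16819976 in β-cells. sst1.1 alone took 40.3 to 52.4% of the counts in GFPhigh, against 0.0289 to 0.627% in β-cells, and ins took 0.00803 to 0.0523% in GFPhigh, against 24.3 to 32.3% in β-cells, so both sorts carried the hormone of their label. Pairwise correlations of the log2 profiles were 0.836 to 0.931 among the 3 GFPhigh libraries and 0.912 to 0.962 among β-cell libraries, as a description over the genes tested. Between a GFPhigh and a β-cell library they were 0.693 to 0.834. In 2 libraries the values stood apart. GFPhigh 2 had counts in 15331 genes, against 18909 and 19249 in GFPhigh 1 and 3 and 18986 to 20229 in β-cells, and its mitochondrially encoded respiratory genes took 1.32% of counts, against 2.01 to 2.11% in GFPhigh 1 and 3 and 2.61 to 3.68% in β-cells. β 6 had 0.627% of its counts in sst1.1, against 0.0289 to 0.111% in the other β-cell libraries. Of other cell types, 12 acinar genes passed the filter and none was called, the 11 endothelial and 6 red blood cell genes matched were all too low to test, and summed acinar levels were 167 to 363 normalized counts in GFPhigh and 71.9 to 803 in β-cells. The α-cell genes gcga and gcgb are given with the hormones below.

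Among the 14693 genes whose normalized count averaged 10 or more over the 19 libraries, 1525 (10.4%) rose and 1131 (7.70%) fell in GFPhigh relative to β-cells. A gene was called when the quasi-likelihood test of edgeR, adjusted by Benjamini-Hochberg, gave an adjusted p under 0.05 and the fold exceeded 2. Every adjusted p here is from that edgeR test, over all 14693 genes unless a left-out library or another setting is named. Those fits were filtered and adjusted anew. The sign ± gives an approximate standard error of the log2 fold change (GFPhigh minus β-cells, 3 against 7 libraries). It was back-calculated as the absolute log2 fold change divided by the square root of the F statistic of the test. Where a group is near 0 counts, it depends on the prior count. All 3 GFPhigh libraries lay above all 7 β-cell libraries for 1595 genes (10.9%) and below all of them for 1695 (11.5%). The median log2 fold change was 2.01 among genes called higher, -1.60 among genes called lower and -0.11 over all genes tested. The called genes reached far: 99 rose and 81 fell more than 64-fold. Scaled by library totals alone, with no correction for the large hormone transcripts, the median over all genes was -0.50 and the calls were 869 higher and 2578 lower, so that 25.2% of calls were higher, against 57.4% with TMM scaling. Without GFPhigh 2 the calls were 1048 higher and 630 lower, of which 967 and 573 were among those above, and without β 6 they were 1542 and 1142. Of the genes called lower, 270 (23.9%) had no count in GFPhigh 2, against 72 in GFPhigh 1 and 66 in GFPhigh 3. Of the genes called higher, β 5 held the highest β-cell value for 403 (26.4%) and β 6 for 355 (23.3%), against 116 to 223 for the others. With sets of libraries that have neighbouring library numbers as a block, the calls were 1184 higher and 836 lower.

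**Figure D1:**
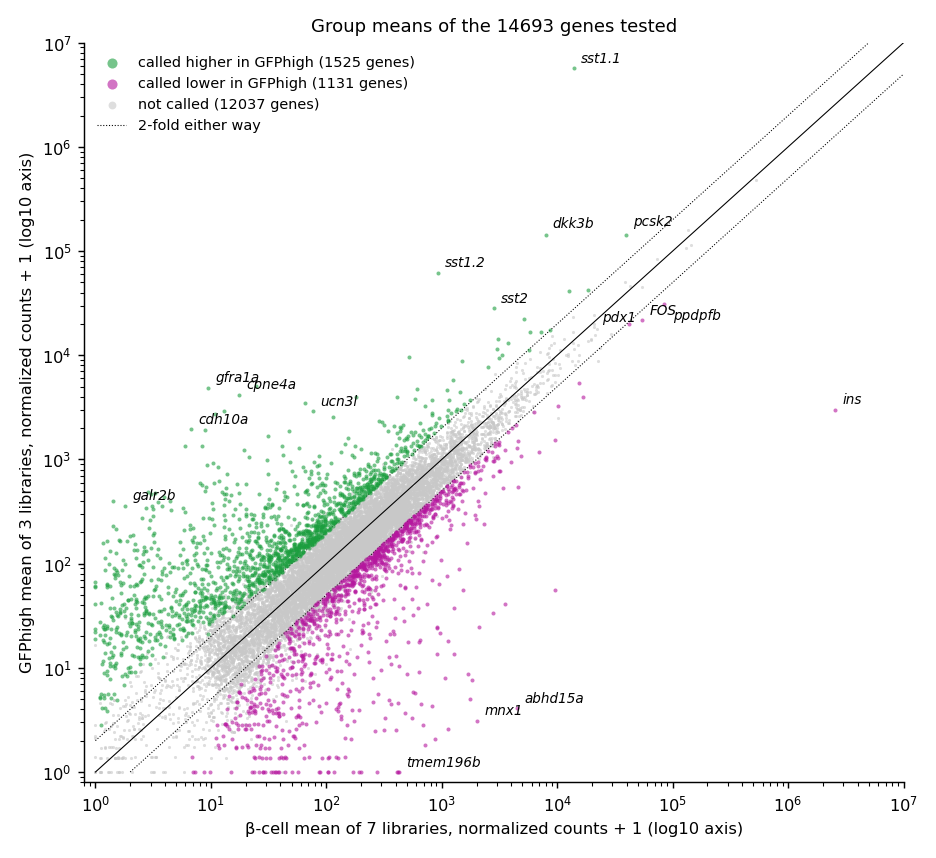
Mean normalized counts plus 1 of the 14693 genes tested, GFPhigh (mean of 3 libraries, vertical log10 axis) against β-cells (mean of 7 libraries, horizontal log10 axis), with the 1525 genes called higher and the 1131 called lower coloured and dotted lines at 2-fold. The hormone genes sst1.1 and ins lie farthest out along their own axes, and pdx1 lies near the diagonal.

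In the values below, GFPhigh libraries 1, 2 and 3 are given in that order, and the 7 β-cell libraries by their lowest, median and highest value, in normalized counts. These are scaled for library size and not for gene length, so they are compared between groups and not between genes. In bulk samples fewer cells of a type and less RNA per cell cannot be told apart. Names in capitals are human symbols that the gene name table gives to a zebrafish gene. Counts of list members called are to be read beside the 10.4% called higher and 7.70% called lower over all genes tested.

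The somatostatin genes were all higher in GFPhigh. sst1.1 (ENSDARG00000040799) had 5098020, 7391630 and 4474030 normalized counts in GFPhigh, against 2635, 6430 and 56604 in β-cells (log2 fold change 8.66 ± 0.78, adjusted p = 6.7e-08). β 6 held the highest β-cell value, and the log2 fold change was 9.70 without β 6. sst1.2 (ENSDARG00000033161) had 39484, 95526 and 50971 normalized counts in GFPhigh, against 233, 725 and 2765 in β-cells (log2 fold change 6.07 ± 0.74, adjusted p = 3.9e-06; 6.66 without β 6). sst2 (ENSDARG00000014190) had 11667, 37588 and 35375 normalized counts in GFPhigh, against 785, 2221 and 7066 in β-cells (log2 fold change 3.32 ± 0.80, adjusted p = 0.0048). All GFPhigh libraries lay above all β-cell libraries for each of the 3 genes. In GFPlow, which the labels set beside GFPhigh and which was not part of this comparison, sst2 reached 1627460, 2101880 and 1428800 normalized counts and sst1.2 reached 657144, 582760 and 450568, while sst1.1 was at 277433, 545689 and 568748.

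Insulin and the incretin gene gip were called lower in GFPhigh. ins (ENSDARG00000035350) had 2049, 1133 and 5806 normalized counts in GFPhigh, against 1952650, 2477020 and 3430400 in β-cells (log2 fold change -9.75 ± 0.87, adjusted p = 5.6e-08; -10.66 without GFPhigh 3). No GFPhigh library came near the β-cell range. gip (ENSDARG00000071306), which encodes an incretin peptide that promotes insulin release, had 0, 0 and 3.16 normalized counts in GFPhigh, against 20.9, 116 and 3899 in β-cells. Its raw counts were 3 in GFPhigh, all in GFPhigh 3, and 7334 in β-cells, a ratio of rates of 750 in favour of β-cells (exact 95% interval 257 to 3640, covering counting error only, as do all such intervals here, since reads are not separate molecules). The groups did not overlap (adjusted p = 0.024), but the call was lost without any of the 3 GFPhigh libraries (adjusted p = 0.062 to 0.11), and β 6 held the highest value.

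The glucagon genes, carried by α-cells, and ghrelin, carried by ε-cells, were not called. gcga (ENSDARG00000079296) had 4509, 94.3 and 2864 normalized counts in GFPhigh, against 6982, 9323 and 13788 in β-cells (log2 fold change -2.03 ± 0.82, adjusted p = 0.073). The GFPhigh libraries were all lower, with GFPhigh 2 far under the other 2, and the log2 fold change was -2.78 without GFPhigh 1. gcgb had 1334, 11.8 and 917 in GFPhigh, against 995, 2445 and 2934 in β-cells (log2 fold change -1.39 ± 0.91, adjusted p = 0.26; -2.09 without GFPhigh 1), and ghrl had 435, 60.1 and 402 in GFPhigh, against 39.4, 537 and 1718 in β-cells (log2 fold change -0.83 ± 0.97, adjusted p = 0.55; -0.16 without β 2). Both overlapped between groups. The α-cell factor genes matched as IRX1 were at or near 0 in all 10 libraries. The α-cell factor gene arxa was not matched by name and so was not looked at.

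Of 14 other peptide genes tested, 8 rose and 4 fell, and their median log2 fold change was 1.93. ucn3l (ENSDARG00000087241), a urocortin 3 gene whose mammalian counterpart is released by β-cells and acts on δ-cells, had 3128, 2917 and 2652 normalized counts in GFPhigh, against 9.77, 46.8 and 171 in β-cells (log2 fold change 5.24 ± 0.55, adjusted p = 5.2e-07). urp2, encoding a urotensin-related peptide, had 732, 763 and 1168 normalized counts in GFPhigh, against 1.63, 5.32 and 20.2 in β-cells (log2 fold change 6.73 ± 0.56, adjusted p = 1.9e-08). Neither gene overlapped between the groups, and in each the β-cell libraries were at a small fraction of the GFPhigh level. pyyb, a peptide YY gene, had 8088, 7015 and 13536 normalized counts in GFPhigh, against 174, 287 and 1606 in β-cells (log2 fold change 4.20 ± 0.46, adjusted p = 8.3e-07; 4.86 without β 7). insl5b, a relaxin-family peptide gene, had 197, 69.6 and 1124 in GFPhigh, against 0, 0.917 and 5.69 in β-cells (log2 fold change 7.65 ± 0.97, adjusted p = 6.3e-06), with the fold set largely by single libraries (5.85 without GFPhigh 3 and 8.25 without β 7). The precursor gene vgf and the apelin gene apln rose less: log2 fold changes were 3.18 ± 0.55 for vgf (2.35 without GFPhigh 2) and 1.51 ± 0.24 for apln, again without overlap.

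2 peptide genes that fell were measured very differently. pnocb, encoding the nociceptin precursor, had no count in any GFPhigh library, against 12.4 to 533 in β-cells, of which β 7 was the highest. On counts pooled over each group this put it at least 179-fold lower in GFPhigh, taking a floor of 3 counts over the group (adjusted p = 0.00045). Such a bound, here and below, covers counting error only and not the spread among libraries. The call of pnocb was lost with limma voom. adm2a, encoding adrenomedullin 2, had 26684, 16637 and 16347 normalized counts in GFPhigh, against 31067, 42304 and 49701 in β-cells (log2 fold change -1.08 ± 0.27, adjusted p = 0.0056). Its groups did not overlap, but it fell only just past 2-fold, and the log2 fold change was -0.97 without GFPhigh 2 and -0.96 without GFPhigh 3, under the fold limit. The count of 4 peptide genes called lower was 2 without GFPhigh 1, 1 without GFPhigh 2 or with library sets as a block and 0 without GFPhigh 3.

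**Figure D2:**
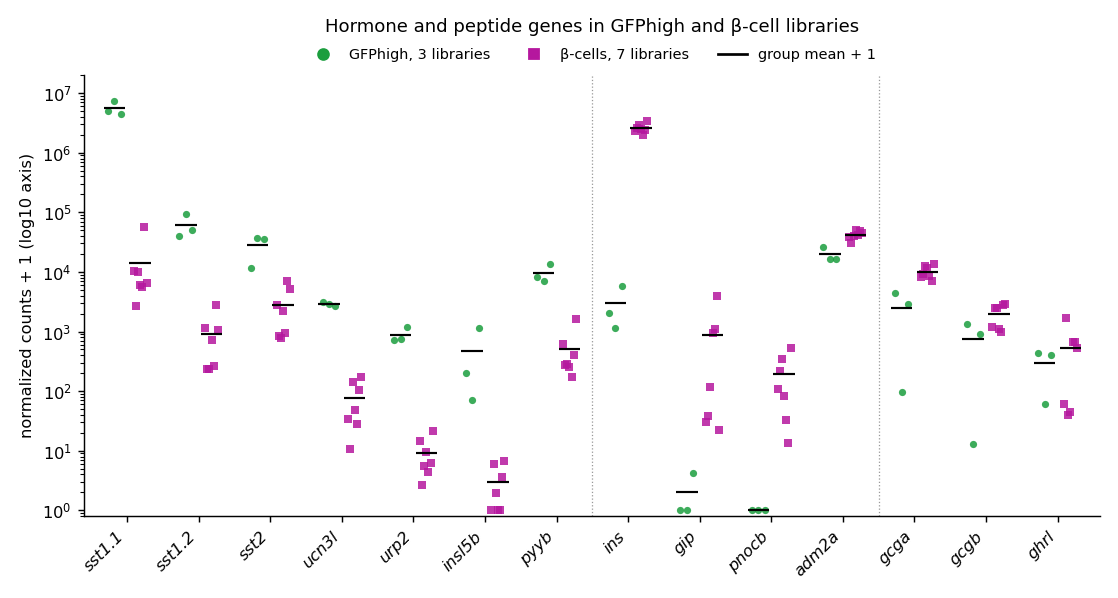
Normalized counts plus 1 of 14 hormone and peptide genes (vertical log10 axis) in the 3 GFPhigh libraries (circles) and the 7 β-cell libraries (squares), with a line at each group mean. From left to right the genes called higher in GFPhigh come first, then those called lower, then gcga, gcgb and ghrl, which were not called; the highest β-cell square of sst1.1, at 56604 normalized counts, is β 6.

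Marker genes of the sorted populations were compared next. All 6 sst1.1 δ-cell markers (sst1.1, hhex, bdnf, cdh10a, sox11b, dkk3b) rose and all 5 β-cell markers (ins, nkx6.2, mnx1, esr1, cacng3b) fell, as a check of the labels, since the study chose most of these names on these samples. The 5 markers of sst2 δ-cells (sst2, sst1.2, cdx4, tbx2b, map3k15) also rose. Their levels in GFPhigh were a small part of those in GFPlow: tbx2b had 30.3, 47.2 and 40 normalized counts in GFPhigh and 1836, 1532 and 1633 in GFPlow, and map3k15 had 98, 152 and 129 in GFPhigh and 8668, 5934 and 6983 in GFPlow. The share of sst2 δ-cells in the GFPhigh gate was not tested.

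Some transcription factors overlapped between the cell types and others were far apart. Of 58 endocrine transcription factor genes tested, 17 (29.3%) rose and 9 (15.5%) fell, against 10.4% and 7.70% of all genes, with a median log2 fold change of -0.04. Without GFPhigh 2, 11 rose. With library totals alone, 8 rose.

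hhex (ENSDARG00000098231), the homeobox gene that maintains δ-cells in mammals, was the factor with the clearest gain. It had 535, 350 and 564 normalized counts in GFPhigh, against 0.632, 0.917 and 5.62 in β-cells (log2 fold change 8.07 ± 0.36, adjusted p = 3.3e-12). β-cell libraries held next to no hhex. TOX3 (ENSDARG00000073957), an HMG-box factor, had 582, 581 and 293 normalized counts in GFPhigh, against 5.62, 10.7 and 21.3 in β-cells (log2 fold change 5.38 ± 0.31, adjusted p = 2e-10). foxa2, a forkhead factor of endoderm and islet, had 913, 997 and 862 normalized counts in GFPhigh, against 70.1, 113 and 151 in β-cells (log2 fold change 3.10 ± 0.22, adjusted p = 3e-09), and its relative foxa had 218, 299 and 209 in GFPhigh, against 3.47, 16.5 and 70.8 in β-cells (log2 fold change 3.32 ± 0.54, adjusted p = 0.00011; 3.95 without β 7). None of these 4 genes overlapped between groups.

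Of 9 sox genes tested, 4 rose and 1 fell (2 without β 1 or with library totals alone). sox11b, of the SoxC group active in immature neurons and endocrine cells, had 579, 495 and 986 normalized counts in GFPhigh, against 32.6, 38.1 and 94 in β-cells (log2 fold change 3.70 ± 0.49, adjusted p = 1e-05). Its relative SOX11 (ENSDARG00000077811) had 157, 145 and 177 in GFPhigh, against 0, 12.2 and 38.2 in β-cells (log2 fold change 3.43 ± 0.57, adjusted p = 0.00014), and SOX9 (ENSDARG00000003293), a factor of duct and progenitor cells, had 180, 141 and 91.6 in GFPhigh, against 0, 1.36 and 13.8 in β-cells (log2 fold change 4.84 ± 0.76, adjusted p = 7.7e-05). All 3 lay above every β-cell library. Another gene matched as SOX9, ENSDARG00000043923, was too low to test, with 4.84, 0 and 5.26 in GFPhigh and 0 to 24.3 in β-cells. The name table does not say which of them is sox9b, the copy the study names as a progenitor marker. Of the 7 duct genes tested, SOX9 and 1 other rose and 2 fell, and the summed duct markers were 3149 to 5541 normalized counts in GFPhigh and 6373 to 13423 in β-cells. SOX6 (ENSDARG00000015536), which in mammals restrains Pdx1 activity and insulin secretion, fell: 0, 0 and 6.32 normalized counts in GFPhigh, against 141, 157 and 253 in β-cells (log2 fold change -6.18 ± 0.88, adjusted p = 2.4e-05). All its GFPhigh counts were in GFPhigh 3, and a fit without that library, -10.43 without GFPhigh 3, depends on the prior count.

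Smaller gains were found in factors of endocrine differentiation. INSM1 (ENSDARG00000091756), a zinc finger factor of all endocrine progenitors, had 2313, 3143 and 2089 normalized counts in GFPhigh, against 566, 1112 and 1193 in β-cells (log2 fold change 1.42 ± 0.27, adjusted p = 0.00061). fev, which acts downstream of the endocrine programme, had 839, 961 and 893 in GFPhigh, against 237, 338.7 and 744 in β-cells (log2 fold change 1.24 ± 0.27, adjusted p = 0.0023), and rfx6, needed for islet formation, had 2686, 3385 and 2651 in GFPhigh, against 1015, 1136 and 2175 in β-cells (log2 fold change 1.14 ± 0.28, adjusted p = 0.0058). The groups did not overlap, but the 3 calls were lost with library totals alone, and that of rfx6 also with library sets as a block (log2 fold change 0.98). tbx2b (log2 fold change 2.62 ± 0.58), cdx4 (2.43 ± 0.67) and cdx1b (2.11 ± 0.66) also rose, at levels under 50 normalized counts in GFPhigh. The study lists each of them as far higher in GFPlow than in GFPhigh. The call of cdx4 was lost without GFPhigh 2 (1.98, adjusted p = 0.099), and that of cdx1b without GFPhigh 2 (2.25, adjusted p = 0.056) and without GFPhigh 3 (1.84, adjusted p = 0.09). ISL2 (ENSDARG00000003971) and RXRA (ENSDARG00000057737), a homeobox and a retinoid receptor gene, rose by 4.46 ± 1.11 and 4.11 ± 0.78 on the log2 scale (RXRA 4.73 without β 2), and both overlapped, with GFPhigh 2 at or near 0.

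The homeobox genes mnx1, nkx6.2 and nkx6.1 were at or near 0 in GFPhigh. mnx1 (ENSDARG00000035984) had 0, 0 and 6.32 normalized counts in GFPhigh, against 1451, 1843 and 2834 in β-cells (log2 fold change -9.72 ± 0.89, adjusted p = 8.2e-08). Its 6 raw counts in GFPhigh were all in GFPhigh 3, so the fitted value of -13.98 without GFPhigh 3 depends on the prior count. nkx6.2 (ENSDARG00000104735), whose mammalian relatives are β-cell and progenitor factors, had 3.63, 0 and 1.05 normalized counts in GFPhigh, against 630, 1153 and 1668 in β-cells, with 4 raw counts in all of GFPhigh (log2 fold change -9.43 ± 0.57, adjusted p = 1.4e-09; -10.71 without GFPhigh 1). nkx6.1 had no count in GFPhigh, against 5.7 to 74.1 in β-cells, at least 26.5-fold lower in GFPhigh (adjusted p = 0.00062). In zebrafish the study gives nkx6.1 as a progenitor and duct gene, barely expressed in control β-cells, where nkx6.2 takes its place. It gives mnx1 for α-cells as well as β-cells.

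insm1b, the second insm1 gene, went against INSM1. It had 16.9, 23.6 and 21.1 normalized counts in GFPhigh, against 659, 1028 and 1204 in β-cells (log2 fold change -5.55 ± 0.56, adjusted p = 3e-07), below every β-cell library. foxa1 likewise went against foxa2 and foxa: it had 2.42, 0 and 4.21 in GFPhigh, against 29.3, 138 and 195 in β-cells (log2 fold change -5.81 ± 0.90, adjusted p = 7.3e-05; -6.66 without GFPhigh 3). The estrogen receptors split in the same manner. esr1 had 33.9, 33 and 42.1 normalized counts in GFPhigh, against 854, 1226 and 1687 in β-cells (log2 fold change -5.12 ± 0.65, adjusted p = 6.3e-06) and esr2b had 90.8, 9.43 and 68.4 in GFPhigh, against 140, 213 and 334 in β-cells (log2 fold change -1.96 ± 0.52, adjusted p = 0.0094), whereas ESR2 (ENSDARG00000016454), the third receptor gene, had 228, 100 and 53.7 in GFPhigh, against 1.12, 12.8 and 51.4 in β-cells (log2 fold change 2.97 ± 0.56, adjusted p = 0.00054; 2.24 without GFPhigh 1 and 3.60 without β 6). Every GFPhigh library was below the β-cell range for esr1 and esr2b and above it for ESR2. ascl1a, a proneural factor gene, had no count in GFPhigh, against 4.33 to 30.3 in β-cells (at least 11.6-fold lower, adjusted p = 0.00029).

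Other factors known from β-cells were not called, or fell by less. pdx1 (ENSDARG00000002779), a regulator of insulin transcription, had 15879, 16702 and 23019 normalized counts in GFPhigh, against 16840, 19872 and 26472 in β-cells (log2 fold change -0.18 ± 0.32, adjusted p = 0.70). The ranges overlapped. neurod1 had 6663, 5804 and 8848 in GFPhigh, against 6268, 7081 and 10438 in β-cells (log2 fold change -0.08 ± 0.22, adjusted p = 0.82) and isl1 had 1928, 3351 and 2698 in GFPhigh, against 2531, 3392 and 4839 in β-cells (log2 fold change -0.44 ± 0.25, adjusted p = 0.19), both pan-endocrine factors and both overlapping. NKX2-2 (ENSDARG00000053298), which in mammals is needed for β-cell formation, did fall, to 390, 559 and 605 in GFPhigh, against 866, 1223 and 1846 in β-cells (log2 fold change -1.31 ± 0.27, adjusted p = 0.0013), by far less than mnx1 or nkx6.2.

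**Figure D3:**
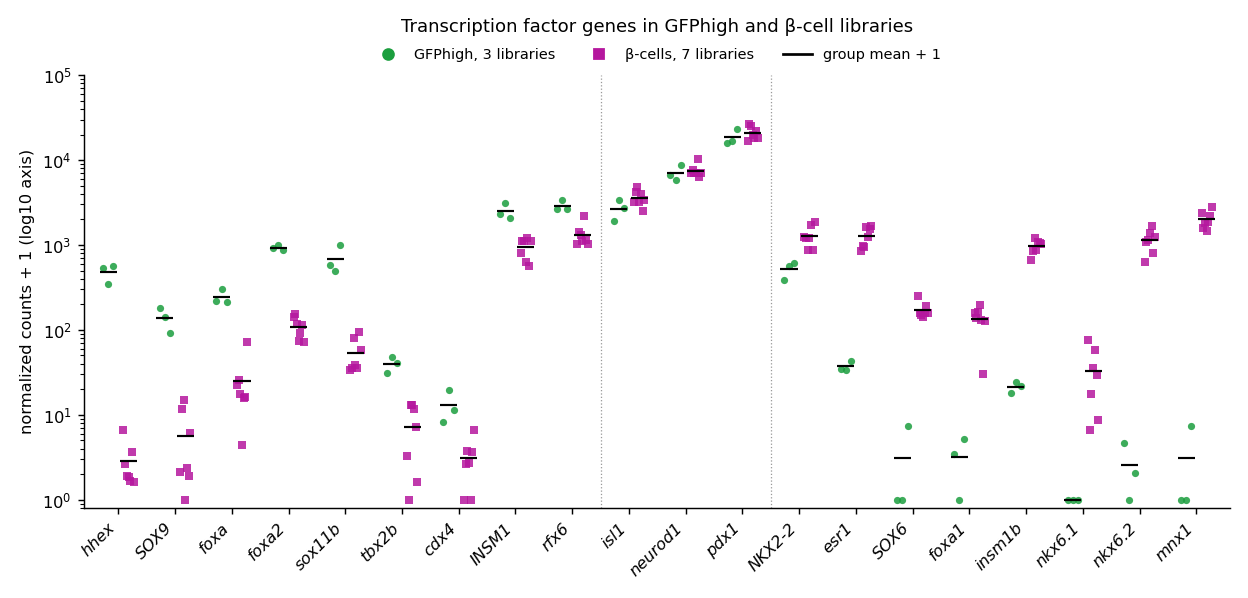
Normalized counts plus 1 of 20 transcription factor genes (vertical log10 axis) in the 3 GFPhigh libraries (circles) and the 7 β-cell libraries (squares), with a line at each group mean. The genes at the left were called higher in GFPhigh, isl1, neurod1 and pdx1 in the middle overlap, and the genes at the right were called lower, with mnx1, nkx6.1 and nkx6.2 at 0 to 6.32 in GFPhigh.

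Genes of the machinery that makes and packs peptide hormones rose in GFPhigh or were not called. Of 31 genes for prohormone processing and granule cargo tested, 13 (41.9%) rose and 0 fell, with a median log2 fold change of 0.73; with library totals alone 8 rose and 1 fell. pcsk2, a convertase that cleaves prosomatostatin and proinsulin, had 121714, 217744 and 89902 normalized counts in GFPhigh, against 19911, 41685 and 57310 in β-cells (log2 fold change 1.87 ± 0.38, adjusted p = 0.0012). cpe, the carboxypeptidase that trims the cleaved peptides, had 36531, 64920 and 23534 normalized counts in GFPhigh, against 8582, 13031 and 15534 in β-cells (log2 fold change 1.71 ± 0.25, adjusted p = 4.4e-05). scg2b, a secretogranin of the granule core, had 13736, 18297 and 10854 normalized counts in GFPhigh, against 2866, 2931 and 3503 in β-cells (log2 fold change 2.22 ± 0.23, adjusted p = 4.2e-07). The groups did not overlap for these 3 genes. The other convertase gene, pcsk1, had 36655, 66700 and 22154 in GFPhigh, against 11832, 17606 and 25545 in β-cells (log2 fold change 1.17 ± 0.33, adjusted p = 0.014). It overlapped and its call rested on GFPhigh 2, without which the log2 fold change was 0.67 (adjusted p = 0.22). The call was also lost with library totals alone (0.69, adjusted p = 0.20) and with library sets as a block (0.87, adjusted p = 0.11). furina (1.63), for a convertase of the Golgi, and ptprna (1.60), for a granule membrane protein, rose on the log2 scale without overlap. scg3, which sorts cargo into granules, had 54543, 44132 and 52883 in GFPhigh, against 34164, 38902 and 45249 in β-cells (log2 fold change 0.38 ± 0.19, adjusted p = 0.16) and overlapped. cadps2, a priming factor for granule release, had raw counts of 154 in GFPhigh against 3 in β-cells, a ratio of rates of 167 in favour of GFPhigh (95% interval 56.2 to 820).

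Of 50 glucose sensing and glycolysis genes tested, 5 (10.0%) rose and 2 (4.00%) fell, against 10.4% and 7.70% of all genes, and the median log2 fold change was -0.12. The count of 2 was 5 without GFPhigh 3 and 1 without GFPhigh 1, β 2 or β 5 or with library sets as a block, and library totals alone gave 2 higher and 7 lower. slc2a2, the glucose transporter of islet and liver, had 2037, 1941 and 2556 normalized counts in GFPhigh, against 2119, 2536 and 3587 in β-cells (log2 fold change -0.35 ± 0.21, adjusted p = 0.23), and the ranges overlapped. gck (ENSDARG00000068006), the glucokinase that sets the glucose threshold of β-cells, had 6860, 6969 and 9059 normalized counts in GFPhigh, against 3705, 4376 and 4913 in β-cells (log2 fold change 0.81 ± 0.17, adjusted p = 0.0015). It was above the β-cell range in every GFPhigh library but by under 2-fold, so it was not called. hk2, a high-affinity hexokinase kept low in mature β-cells, rose to 70.2, 62.5 and 15.8 in GFPhigh, against 4.58, 5.69 and 23.6 in β-cells (log2 fold change 2.48 ± 0.56, adjusted p = 0.0029), with 1 GFPhigh library inside the β-cell range. pfkpa, a phosphofructokinase gene, rose with GFPhigh 2 far above the others, by 1.94 ± 0.30 on the log2 scale (1.06 without GFPhigh 2).

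2 enzymes next to this pathway differed more. PC (ENSDARG00000051939), the pyruvate carboxylase gene that refills the citric acid cycle and is abundant in β-cells, had 66.6, 0 and 97.9 normalized counts in GFPhigh, against 7440, 9670 and 11444 in β-cells (log2 fold change -7.43 ± 0.89, adjusted p = 2.7e-06; -8.16 without GFPhigh 3). GFPhigh was far under the β-cell range. G6PC1 (ENSDARG00000013721), the glucose-6-phosphatase gene that opposes glucokinase, had 71.4, 139 and 81.1 normalized counts in GFPhigh, against 7.98, 12.6 and 22.4 in β-cells (log2 fold change 2.91 ± 0.30, adjusted p = 3.2e-07), and pck2, a mitochondrial gluconeogenic enzyme gene, had 172, 167 and 97.9 in GFPhigh, against 11.2, 22.9 and 48.8 in β-cells (log2 fold change 2.52 ± 0.37, adjusted p = 4e-05). Both rose without overlap. PPP1R3B (ENSDARG00000044691), a glycogen-targeting phosphatase subunit, had 38.7, 36.5 and 16.8 in GFPhigh, against 0, 0 and 3.55 in β-cells (log2 fold change 5.02 ± 0.75, adjusted p = 4.4e-05; 5.86 without β 6). PDK3 (ENSDARG00000099791), a kinase that blocks pyruvate dehydrogenase, had raw counts of 2 in GFPhigh against 545 in β-cells, with both GFPhigh counts in GFPhigh 1, a ratio of rates of 83.6 in favour of β-cells (95% interval 23.0 to 692). Of 26 genes of glucose output and glycogen tested, 3 rose and 2 fell; 5 rose without GFPhigh 3, and 1 fell without GFPhigh 1, GFPhigh 3, β 3 or β 5.

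KATP subunits were lower or not called in GFPhigh. Of the 5 tested, 3 fell and 0 rose, with a median log2 fold change of -1.23. kcnj11 (ENSDARG00000051880), the pore subunit of the β-cell channel, had 752, 973 and 1315 normalized counts in GFPhigh, against 1903, 2451 and 2676 in β-cells (log2 fold change -1.23 ± 0.27, adjusted p = 0.002), with no overlap. ABCC8 (ENSDARG00000051879), the sulfonylurea receptor next to it, had 4607, 2978 and 4617 in GFPhigh, against 1812, 3511 and 4185 in β-cells (log2 fold change 0.32 ± 0.26, adjusted p = 0.38), and kcnj11l had 122, 124 and 73.7 in GFPhigh, against 55, 104 and 145 in β-cells (log2 fold change 0.07 ± 0.34, adjusted p = 0.89). Both overlapped, and the sign of each turned with library totals alone. The pair that forms the vascular channel in mammals, KCNJ8 (26.6, 10.6 and 40 in GFPhigh, against 36.4, 233 and 469 in β-cells; log2 fold change -3.13 ± 0.92, adjusted p = 0.017) and ABCC9 (26.6, 107 and 32.6 in GFPhigh, against 35.9, 208 and 495 in β-cells; log2 fold change -2.11 ± 0.70, adjusted p = 0.031), fell with overlap. Their calls rested on single libraries. For KCNJ8 the adjusted p was 0.056 without GFPhigh 1 and 0.097 without GFPhigh 2. For ABCC9 it was 0.12 without GFPhigh 1, 0.1 without GFPhigh 3 and 0.051 without β 3 or β 5, and the log2 fold change was -3.01 without GFPhigh 2. Without GFPhigh 1, 1 of the 5 subunit genes was called lower.

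Of 58 receptors for peptides and amines tested, 23 (39.7%) rose and 16 (27.6%) fell, with a median log2 fold change of 0.81. Among those that rose, CHRM4, adra2da and npy8br belong to receptor types that couple to inhibitory G proteins in mammals. Coupling was not counted over the list. CHRM4 (ENSDARG00000069254), a muscarinic acetylcholine receptor of this kind, had 2785, 2218 and 3150 normalized counts in GFPhigh, against 0, 5.06 and 42.6 in β-cells (log2 fold change 8.12 ± 0.65, adjusted p = 1.5e-08; 9.25 without β 6). adra2da, an α2 adrenergic receptor, had 726, 686 and 772 normalized counts in GFPhigh, against 3.79, 10.4 and 26.6 in β-cells (log2 fold change 5.84 ± 0.42, adjusted p = 3.5e-09), and npy8br, a neuropeptide Y receptor, had 450, 272 and 358 in GFPhigh, against 0.917, 2.44 and 4.43 in β-cells (log2 fold change 6.95 ± 0.30, adjusted p = 3.3e-12). All GFPhigh libraries lay above all β-cell libraries. rxfp3.3a1, a relaxin-family peptide receptor, rose by 6.89 ± 0.55 on the log2 scale (7.81 without β 6), and galr2b, a galanin receptor, rose by 8.58 ± 1.21 (7.87 without GFPhigh 3).

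Receptors that raise cyclic AMP in mammals were found among those that rose and those that fell. mc4r, a melanocortin receptor, had 585, 435 and 417 normalized counts in GFPhigh, against 5.7, 15.7 and 26.4 in β-cells (log2 fold change 4.84 ± 0.32, adjusted p = 1.3e-09). 2 genes matched as ADCYAP1R1, the receptor for the peptide PACAP, rose: ENSDARG00000105201 had 718, 555 and 518.98 in GFPhigh, against 2.44, 10.1 and 20.4 in β-cells (log2 fold change 5.95 ± 0.39, adjusted p = 1.3e-09) and ENSDARG00000053724 had 46, 86.1 and 101 in GFPhigh, against 0, 1.12 and 4.75 in β-cells (log2 fold change 5.40 ± 0.46, adjusted p = 2.6e-08). Neither overlapped. ghrhrl, a receptor gene of the growth hormone-releasing hormone family, was nearly confined to GFPhigh in these 10 libraries, with raw counts of 431 in GFPhigh against 2 in β-cells (ratio of rates 702, 95% interval 193 to 5816). The prostaglandin receptor gene ptger4c had raw counts of 403 in GFPhigh against 1 in β-cells (ratio 1313, 234 to 51983) and the serotonin receptor gene HTR4 (ENSDARG00000061940) of 331 in GFPhigh against 3 in β-cells (ratio 359, 122 to 1752). Both varied among the GFPhigh libraries, which held 30.5 to 311 normalized counts of ptger4c and 37.9 to 229 of HTR4. Their fitted log2 fold changes were 8.40 without GFPhigh 2 and 10.31 without β 1 for ptger4c and 7.42 without GFPhigh 1 and 10.01 without β 2 for HTR4.

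2 receptors of β-cells had no count in GFPhigh. gcgra, the glucagon receptor, which also raises cyclic AMP and through which α-cells enhance insulin release, had 109 to 298 in β-cells and was at least 149-fold lower in GFPhigh (adjusted p = 4.1e-06). CHRM5 (ENSDARG00000099928), a muscarinic receptor that raises calcium, had 64.2 to 229 in β-cells and was at least 93.0-fold lower in GFPhigh (adjusted p = 0.00037). The muscarinic receptors CHRM4 and CHRM5 were thus called in opposite directions, with little of either in the other cell type.

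Genes of neurotrophic signalling included large differences in both directions. Of 18 tested, 7 (38.9%) rose and 2 (11.1%) fell; of those 2, 1 was called without GFPhigh 1 or without GFPhigh 2. bdnf (ENSDARG00000018817), the brain-derived neurotrophic factor gene, had 2090, 1449 and 2159 normalized counts in GFPhigh, against 2.6, 4.42 and 27.5 in β-cells (log2 fold change 7.91 ± 0.48, adjusted p = 3.1e-10; 8.65 without β 6). gfra1a (ENSDARG00000099732), the receptor for the factor GDNF, had 5737, 3887 and 5001 normalized counts in GFPhigh, against 0, 2.44 and 40.8 in β-cells (log2 fold change 9.19 ± 0.75, adjusted p = 1.6e-08; 10.60 without β 6). ret, the kinase that signals for GDNF-family receptors, had 9925, 15502 and 8999 normalized counts in GFPhigh, against 2554, 3001 and 3778 in β-cells (log2 fold change 1.92 ± 0.23, adjusted p = 3.7e-06). No library of one group entered the range of the other for these 3 genes, although ret was well above 0 in both.

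artnb, a gene of the GDNF family, had 84.7, 15.3 and 128 in GFPhigh, against 0, 0 and 2.66 in β-cells (log2 fold change 6.76 ± 0.63, adjusted p = 1e-07; 6.15 without GFPhigh 3 and 7.61 without β 6). cntfr, for the receptor of ciliary neurotrophic factor, had 119, 236 and 506 in GFPhigh, against 10.1, 35.9 and 54.1 in β-cells (log2 fold change 3.07 ± 0.41, adjusted p = 1.1e-05; 2.37 without GFPhigh 3). Both lay above the β-cell range. The opposite was found for NGFR (ENSDARG00000088708), the low-affinity receptor shared by neurotrophins including BDNF: 13.3, 3.54 and 4.21 in GFPhigh, against 506, 1161 and 1611 in β-cells (log2 fold change -7.23 ± 0.64, adjusted p = 4.5e-08; -8.05 without GFPhigh 1). The ligand gene bdnf and this receptor gene were thus high in opposite cell types, each with no overlap.

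**Figure D4:**
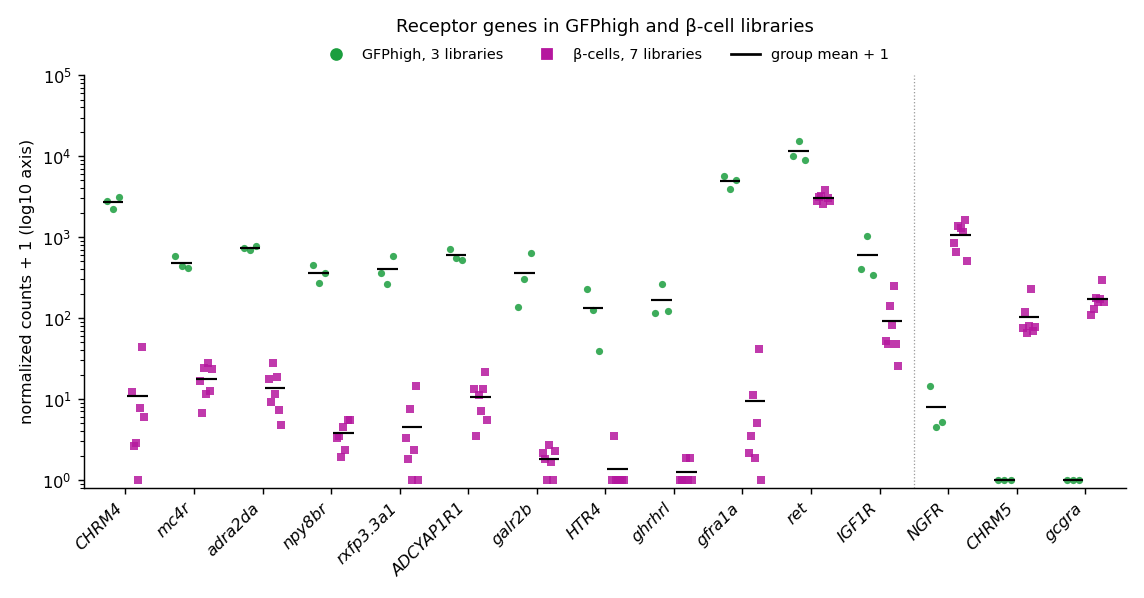
Normalized counts plus 1 of 15 receptor genes (vertical log10 axis) in the 3 GFPhigh libraries (circles) and the 7 β-cell libraries (squares), with a line at each group mean. The 12 genes from CHRM4 to IGF1R were called higher in GFPhigh, with ret the only one abundant in every β-cell library, and NGFR, CHRM5 and gcgra were called lower.

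Ion channel genes rose and fell in separate members of the same families. Of 62 calcium channel and pump genes tested, 19 (30.6%) rose and 11 (17.7%) fell, and of 47 potassium channel genes 14 (29.8%) rose and 7 (14.9%) fell, of which the 14 were 9 without GFPhigh 2 or with library totals alone. cacna1i, a low-voltage-activated calcium channel, had 691, 512 and 661 normalized counts in GFPhigh, against 2.75, 10.1 and 31 in β-cells (log2 fold change 5.84 ± 0.48, adjusted p = 1.9e-08), and cacnb2b, an accessory β subunit, had 185, 177 and 196 in GFPhigh, against 0, 2.25 and 6.21 in β-cells (log2 fold change 6.38 ± 0.48, adjusted p = 5.7e-09). Both were close to 0 in β-cells. cacng3b (ENSDARG00000076401), a gene named for a γ subunit that marks β-cells in this fish, had 2.42, 0 and 2.11 normalized counts in GFPhigh, against 343, 368 and 576 in β-cells (log2 fold change -7.93 ± 0.81, adjusted p = 3.4e-07), and its relative cacng2a had no count in GFPhigh, against 53.7 to 171 in β-cells (at least 103-fold lower, adjusted p = 4.2e-06). For both genes the groups did not overlap. They are listed here by name, and whether their products act in calcium channels was not tested. slc8a4a, a sodium-calcium exchanger gene, rose by 7.43 ± 0.66 on the log2 scale.

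kcnk2a, a leak potassium channel gene, had 61.7, 126 and 43.2 in GFPhigh, against 0, 0 and 1.73 in β-cells (log2 fold change 7.02 ± 0.76, adjusted p = 6.8e-07; 7.61 without β 4). Among channels that repolarise the membrane, kcnh6a had 1434, 1453 and 1162 in GFPhigh, against 97.5, 177 and 334 in β-cells (log2 fold change 2.93 ± 0.30, adjusted p = 3.3e-07) and kcnh7 had 428, 308 and 154 in GFPhigh, against 12.2, 16.9 and 35.5 in β-cells (log2 fold change 3.95 ± 0.42, adjusted p = 4.9e-07). The inward rectifier gene kcnj19b went the other way, with 59.3, 81.4 and 82.1 in GFPhigh, against 828, 1016 and 1588 in β-cells (log2 fold change -3.89 ± 0.52, adjusted p = 1.3e-05). None of these 4 overlapped. Of 11 sodium channel genes tested 3 rose and 1 fell, and without GFPhigh 2 both counts were 0, while 5 rose without β 5. With library totals alone 0 rose and 2 fell.

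Of 119 genes of vesicle release tested, 16 (13.4%) rose and 8 (6.72%) fell, near the 10.4% and 7.70% of all genes. Their median log2 fold change was 0.05. The 8 were 5 without GFPhigh 2, and library totals alone gave 8 higher and 19 lower. The genes below are examples of single members and not a result about the list. SYT10 (ENSDARG00000045750), a synaptotagmin that senses calcium, had 1875, 559 and 1631 normalized counts in GFPhigh, against 0, 1.36 and 27.5 in β-cells (log2 fold change 8.08 ± 0.64, adjusted p = 1.2e-08; 9.86 without β 6). Of the RAB3 GTPases on secretory granules, rab3db had 412, 295 and 753 in GFPhigh, against 21.3, 39.9 and 56.3 in β-cells (log2 fold change 3.53 ± 0.33, adjusted p = 1.2e-07) and rab3c had 140, 204 and 128 in GFPhigh, against 1315, 1517 and 2523 in β-cells (log2 fold change -3.38 ± 0.27, adjusted p = 1.6e-08). They were called in opposite directions, with no overlap. syn2b, a synapsin gene, rose by 5.35 ± 0.75 on the log2 scale (6.04 without β 4), and cplx1, a complexin gene, by 5.70 ± 0.54. The neuronal RNA-binding gene elavl3 had 292, 139 and 211 in GFPhigh, against 0, 4.43 and 15.6 in β-cells (log2 fold change 5.17 ± 0.74, adjusted p = 2.5e-05) and lay above the β-cell range.

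Integrins, cadherins and adhesion genes of the immunoglobulin superfamily were called higher at shares above the 10.4% of all genes. Of 70 genes of the immunoglobulin superfamily, neurexins and neuroligins tested, 30 (42.9%) rose and 3 (4.29%) fell, with a median log2 fold change of 1.07; the 3 were 1 without GFPhigh 2 and 7 with library totals alone. Of 18 integrins, 10 (55.6%) rose and 2 (11.1%) fell, and 6 rose without GFPhigh 2. Of 70 cadherins and protocadherins, 16 (22.9%) rose and 6 (8.57%) fell, the 6 being 10 with library totals alone. Of 23 claudin and tight junction genes, 3 (13%) rose and 1 (4.35%) fell, near the shares over all genes. With library totals alone, another expression filter or no filter, 3 fell.

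cdh10a (ENSDARG00000055843), a classical cadherin gene of neural tissue, had 1674, 2323 and 1825 normalized counts in GFPhigh, against 0.866, 4.75 and 15.07 in β-cells (log2 fold change 8.39 ± 0.85, adjusted p = 3.2e-07). bcam, an adhesion molecule that binds laminin, had 154, 125 and 200 normalized counts in GFPhigh, against 0, 1.63 and 5.32 in β-cells (log2 fold change 6.13 ± 0.43, adjusted p = 3.2e-09), and itga6b, an integrin subunit gene for laminin, had 3932, 3930 and 6389 in GFPhigh, against 384, 623 and 967 in β-cells (log2 fold change 2.96 ± 0.24, adjusted p = 1.5e-08). In each the GFPhigh libraries were above all β-cell libraries. The trans-synaptic partners nlgn1 (log2 fold change 3.13 ± 0.32) and NRXN3 (3.23 ± 0.31; ENSDARG00000043746) rose together, as did PCDH15 (4.00 ± 0.35; ENSDARG00000098257). Against this run, itga9 had 3.63, 0 and 3.16 in GFPhigh, against 161, 311 and 545 in β-cells (log2 fold change -7.06 ± 0.84, adjusted p = 2.5e-06), and clstn2, for a calsyntenin of synaptic membranes, had 6.05, 1.18 and 3.16 in GFPhigh, against 140, 777 and 1314 in β-cells (log2 fold change -7.54 ± 0.96, adjusted p = 6.4e-06; -8.15 without GFPhigh 1). Both were almost confined to β-cells among these libraries.

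Of 76 axon guidance genes tested, 32 (42.1%) rose and 9 (11.8%) fell, with a median of 0.77, and 5 fell without GFPhigh 2. slit1a, a secreted ligand of Robo receptors, had 456, 828 and 437 normalized counts in GFPhigh, against 2.75, 5.69 and 13.3 in β-cells (log2 fold change 6.25 ± 0.36, adjusted p = 2e-10). Its relative slit2 had 481, 332 and 499 in GFPhigh, against 23.6, 39 and 75.8 in β-cells (log2 fold change 3.27 ± 0.29, adjusted p = 4.9e-08). SEMA3B (ENSDARG00000011672), a secreted semaphorin gene, had 369, 376 and 229 in GFPhigh, against 0, 3.55 and 6.78 in β-cells (log2 fold change 6.42 ± 0.50, adjusted p = 9.7e-09), and UNC5C (ENSDARG00000099133), a netrin receptor gene, had 60.5, 114 and 52.6 in GFPhigh, against 0, 0.678 and 2.75 in β-cells (log2 fold change 6.16 ± 0.69, adjusted p = 1.2e-06). All 4 were apart from the β-cell range. Of 41 neurotransmitter receptor genes 9 (22.0%) rose and 3 (7.32%) fell. The metabotropic glutamate receptor gene GRM7 (ENSDARG00000100267) rose to 114, 106 and 102 in GFPhigh, against 0, 1.73 and 4.49 in β-cells (log2 fold change 5.89 ± 0.54, adjusted p = 8.7e-08), and the nicotinic subunit gene CHRNB2 (ENSDARG00000017790) had raw counts of 160 in GFPhigh against 2 in β-cells (ratio of rates 261, 95% interval 71.0 to 2171).

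Growth and patterning signals differed gene by gene. Of 73 BMP, TGF-β and FGF genes tested, 15 (20.5%) rose and 10 (13.7%) fell, and of 27 Wnt genes 6 (22.2%) rose and 3 (11.1%) fell, the 3 being 1 without GFPhigh 2. dkk3b (ENSDARG00000070683), a secreted Dickkopf-family gene, had 139956, 137386 and 152350 normalized counts in GFPhigh, against 2885, 8637 and 12770 in β-cells (log2 fold change 4.18 ± 0.42, adjusted p = 3e-07). It was abundant in every library of both groups and still did not overlap. KREMEN1 (ENSDARG00000062579), a receptor for Dickkopf proteins, had 490, 436 and 300 in GFPhigh, against 14.7, 50.2 and 68.9 in β-cells (log2 fold change 3.27 ± 0.35, adjusted p = 5.9e-07). The ligand gene wnt9a went the other way, with 8.47, 0 and 12.6 in GFPhigh, against 172, 251 and 317 in β-cells (log2 fold change -5.11 ± 0.70, adjusted p = 1.6e-05; -5.86 without GFPhigh 3).

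FSTL1 (ENSDARG00000039576), a secreted follistatin-like gene, had 9.68, 7.07 and 3.16 normalized counts in GFPhigh, against 1015, 1806 and 2866 in β-cells (log2 fold change -8.10 ± 0.80, adjusted p = 2e-07). The groups were far apart. tgfbr3, the TGF-β co-receptor, had 116, 144 and 145 in GFPhigh, against 0, 0 and 7.98 in β-cells (log2 fold change 6.81 ± 0.94, adjusted p = 1.8e-05; 10.07 without β 6), and fgfr1a, an FGF receptor, had 679, 327 and 791 in GFPhigh, against 41.3, 78.4 and 127 in β-cells (log2 fold change 3.00 ± 0.29, adjusted p = 1.3e-07). Both rose. Of insulin and growth factor signalling genes, 7 of 44 rose and 2 fell; 4 rose without GFPhigh 2, 5 fell without GFPhigh 3, and 1 fell without GFPhigh 2, β 1, β 2 or β 5 or with library sets as a block. With library totals alone 4 rose and 5 fell. IGF1R (ENSDARG00000027423) had 402, 1040 and 338 in GFPhigh, against 24.6, 50.6 and 247 in β-cells (log2 fold change 2.69 ± 0.50, adjusted p = 0.00045; 2.01 without GFPhigh 2), igf2a rose by 7.06 ± 0.84 on the log2 scale (6.46 without GFPhigh 3), and igfbp2b, a binding protein for these ligands, by 1.78 ± 0.38.

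Of 44 genes of cyclic AMP signalling, 9 (20.5%) rose and 3 (6.82%) fell. The adenylyl cyclases ADCY5 (ENSDARG00000091342; 876, 640 and 688 in GFPhigh, against 88.5, 218 and 292 in β-cells; log2 fold change 1.97 ± 0.30, adjusted p = 6.4e-05) and ADCY7 (ENSDARG00000060070; 524, 987 and 323 in GFPhigh, against 107, 141 and 186.2 in β-cells; log2 fold change 2.10 ± 0.25, adjusted p = 2.6e-06) rose without overlap. rapgef3, an exchange factor through which cyclic AMP promotes insulin release, fell, with 159, 178 and 74.7 in GFPhigh, against 254, 391 and 631 in β-cells (log2 fold change -1.61 ± 0.33, adjusted p = 0.0012). rgs16, which shortens G protein signals, fell too, with 911, 311 and 847 in GFPhigh, against 1774, 3058 and 3252 in β-cells (log2 fold change -1.998 ± 0.33, adjusted p = 0.00015). These 2 lay below the β-cell range.

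Genes of nutrient handling differed in single transporters and enzymes. Of 50 amino acid transporters tested, 9 (18.0%) rose and 7 (14.0%) fell; 15 rose without GFPhigh 3 and 4 fell without GFPhigh 2. slc7a2, a transporter for arginine and other cationic amino acids, had 39.9, 3.54 and 75.8 normalized counts in GFPhigh, against 2354, 3806 and 4717 in β-cells (log2 fold change -6.46 ± 0.77, adjusted p = 2.7e-06; -7.35 without GFPhigh 3). slc7a7, which exchanges the same class of amino acids, had 1040, 768 and 1179 normalized counts in GFPhigh, against 8.99, 25.8 and 52.3 in β-cells (log2 fold change 5.04 ± 0.33, adjusted p = 1.3e-09). Between these 2 sorts, each gene was found almost in one. The study lists slc7a7 as higher in GFPlow than in GFPhigh, so it is not particular to GFPhigh. SLC7A14 (ENSDARG00000010816), a relative on intracellular membranes, rose by 4.32 ± 0.35 on the log2 scale, and SLC43A2 (ENSDARG00000061120), a transporter for neutral amino acids, fell to 1191, 785 and 1277 in GFPhigh, against 3885, 4611 and 5672 in β-cells (log2 fold change -2.15 ± 0.27, adjusted p = 5.3e-06). Of 46 fatty acid and sterol synthesis genes 4 rose and 6 fell, 3 without GFPhigh 2. aclya, whose product supplies acetyl-CoA for lipid synthesis, had 2685, 5408 and 2950 in GFPhigh, against 597, 755 and 1068 in β-cells (log2 fold change 2.17 ± 0.22, adjusted p = 3.7e-07), and DGAT2 (ENSDARG00000018846), which completes triglycerides, had 487, 455 and 467 in GFPhigh, against 0, 8.25 and 25.9 in β-cells (log2 fold change 5.24 ± 0.58, adjusted p = 8.8e-07). Both rose without overlap.

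Large folds were also found outside these lists. cpne4a, encoding a calcium-dependent membrane-binding copine, had 3322, 5330 and 3925 normalized counts in GFPhigh, against 5.06, 6.78 and 56.7 in β-cells (log2 fold change 8.01 ± 0.53, adjusted p = 1.3e-09; 8.76 without β 6). SRD5A2 (ENSDARG00000039067), a steroid 5α-reductase gene, had 2738, 2094 and 3858 normalized counts in GFPhigh, against 2.75, 4.07 and 50.5 in β-cells (log2 fold change 7.93 ± 0.56, adjusted p = 3e-09; 9.02 without β 6). In both genes β 6 was the highest β-cell library. brinp3a.1 and gcnt4a, a glycosyltransferase gene, were close to 0 in β-cells, with 4 raw counts each over the 7 libraries. brinp3a.1 had 231 to 707 in GFPhigh, against 0 to 1.36 in β-cells (log2 fold change 9.41 ± 0.76; 8.72 without GFPhigh 2), and gcnt4a had 159 to 264 in GFPhigh, against 0 to 3.55 in β-cells (8.49 ± 0.61; 10.74 without β 6).

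Among losses, abhd15a had 7.26, 0 and 2.11 normalized counts in GFPhigh, against 3789, 4434 and 5260 in β-cells, with 8 raw counts in GFPhigh (log2 fold change -10.45 ± 0.90, adjusted p = 3.7e-08; -11.83 without GFPhigh 1). TTPA (ENSDARG00000027584), a vitamin E transfer protein gene, had raw counts of 2 in GFPhigh against 6166 in β-cells, with both GFPhigh counts in GFPhigh 1, a ratio of rates of 946 in favour of β-cells (95% interval 262 to 7816). 3 more genes had no count in GFPhigh: tmem196b (at least 365-fold lower, 281 to 552 in β-cells), pik3r6a, a regulator of phosphoinositide 3-kinase (at least 342-fold lower, 205 to 642 in β-cells), and epd, a secreted ependymin (at least 329-fold lower, 48.1 to 1311 in β-cells, of which β 1 was the highest). Among genes called lower 32 had no count in any GFPhigh library, and among genes called higher 7 had none in any β-cell library. The first asks for 0 counts in 3 libraries and the second in 7, so these numbers are not to be compared. ppdpfb, an abundant gene linked to exocrine differentiation, fell to 35981, 32570 and 24854 in GFPhigh, against 43940, 95119 and 118243 in β-cells (log2 fold change -1.43 ± 0.37, adjusted p = 0.0081). Its call was lost with replicate numbers as a block, without library set F and in library set E alone. The same held with the 2-fold limit tested inside the model.

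Genes of basic cell upkeep seldom rose. Of 55 proteasome subunit genes tested, 1 rose and 19 (34.5%) fell, with a median log2 fold change of -0.84. The 19 were 8 without GFPhigh 2, 12 without β 1, 7 with the library sets as a block and 37 with library totals alone, and the 1 was 0 without any of GFPhigh 1 to 3 or β 1 to 4. PSMD10 (ENSDARG00000015628), an assembly chaperone gene, had 54.5, 56.6 and 66.3 normalized counts in GFPhigh, against 112, 240 and 496 in β-cells (log2 fold change -2.17 ± 0.45, adjusted p = 0.0015), and PSME2 (ENSDARG00000033144), a subunit gene of the activator cap, had 267, 163 and 321 in GFPhigh, against 518, 809.2 and 1357 in β-cells (log2 fold change -1.69 ± 0.34, adjusted p = 0.0012). Both were below every β-cell library. psmb13a fell by 3.17 ± 0.59 on the log2 scale (-3.98 without GFPhigh 1).

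Of 99 nuclear genes of oxidative phosphorylation, 0 rose and 7 (7.07%) fell, against 10.4% and 7.70% of all genes, with a median of -0.39. The 7 were 3 without GFPhigh 2, 11 without GFPhigh 3 and 25 with library totals alone. NDUFA4L2 (ENSDARG00000103114), for a mitochondrial protein related to a respiratory chain subunit, had 1192, 707 and 1611 normalized counts in GFPhigh, against 5274, 6083 and 9489 in β-cells (log2 fold change -2.56 ± 0.36, adjusted p = 2.2e-05). The groups were apart. COX5B (ENSDARG00000068738) had 0, 0 and 6.32 in GFPhigh, against 10.6, 28.5 and 55.9 in β-cells (log2 fold change -3.73 ± 0.98, adjusted p = 0.0085), all its GFPhigh counts being in GFPhigh 3 (-7.95 without GFPhigh 3, which depends on the prior count). None of the 13 mitochondrially encoded genes was called, with a median of -0.06; 2 were called lower without GFPhigh 3, 1 without β 2 or β 5 and 3 with library totals alone. Of 83 cytosolic ribosomal protein genes, 0 rose and 1 fell (rps27l, -1.36 ± 0.29), with a median of -0.50; 12 fell without GFPhigh 3 and 21 with library totals alone, and 2 without β 3, β 4 or β 6. With library sets as a block rps27l lost its call (log2 fold change -0.85) and none fell. Of 43 ER folding and stress genes, 3 (6.98%) rose and 3 (6.98%) fell, against 10.4% and 7.70% of all genes, with a median of 0.00. None rose without GFPhigh 2, while 5 fell without GFPhigh 1. With library totals alone 0 rose and 9 fell, and with library sets as a block 1 rose.

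Activity-linked genes split. Of 22 immediate early genes tested, 2 rose and 6 (27.3%) fell, the 6 being 3 without GFPhigh 2 and 3 without GFPhigh 3. FOS (ENSDARG00000031683), induced within minutes of stimulation, had 24207, 18709 and 22199 normalized counts in GFPhigh, against 37812, 53708 and 64450 in β-cells (log2 fold change -1.33 ± 0.29, adjusted p = 0.002), and ier2a had 3278, 3220 and 5299 in GFPhigh, against 8897, 17456 and 26590 in β-cells (log2 fold change -2.08 ± 0.36, adjusted p = 0.00025). Both were lower in every GFPhigh library. NPAS4, a factor induced by calcium entry, rose in both genes of that name: ENSDARG00000055752 had 2778, 4566 and 4629 in GFPhigh, against 62.4, 91.7 and 505 in β-cells (log2 fold change 4.48 ± 0.53, adjusted p = 2.7e-06) and ENSDARG00000087753 had 71.4, 21.2 and 62.1 in GFPhigh, against 0, 1.73 and 13.3 in β-cells (log2 fold change 3.84 ± 0.85, adjusted p = 0.0024; 4.88 without β 7).

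Of 38 cell cycle genes tested, 1 rose and 5 (13.2%) fell, with a median of -0.78, and 2 fell without GFPhigh 2, 3 with library sets as a block and 8 with library totals alone. ccnd1 had 16.9, 0 and 7.37 normalized counts in GFPhigh, against 30.3, 75.7 and 223 in β-cells (log2 fold change -3.59 ± 0.79, adjusted p = 0.0023; -4.64 without GFPhigh 1) and CDK6 (ENSDARG00000070228), the kinase it activates, had 9.68, 0 and 5.26 in GFPhigh, against 28.1, 51.4 and 73.6 in β-cells (log2 fold change -3.23 ± 0.83, adjusted p = 0.0075; -4.08 without GFPhigh 1). Both were below the β-cell range. plk1, a mitotic kinase gene, had 27.8, 93.1 and 14.7 in GFPhigh, against 0, 1.36 and 8.66 in β-cells (log2 fold change 4.03 ± 0.70, adjusted p = 0.00024; 2.94 without GFPhigh 2 and 4.66 without β 4), and lay above it. Of 3 immune genes tested, 1 fell: CXCR4 (ENSDARG00000041959) had raw counts of 3 in GFPhigh against 326 in β-cells, with all GFPhigh counts in GFPhigh 3, a ratio of rates of 33.4 in favour of β-cells (95% interval 11.3 to 163), overlapped with a β-cell library at 0, and lost its call without GFPhigh 1 (adjusted p = 0.099), without GFPhigh 2 (0.13) or with library sets as a block (0.082). The summed immune markers were 118 to 848 normalized counts in GFPhigh and 195 to 3311 in β-cells. The antigen-presentation genes cd74a (151, 8.25 and 229 in GFPhigh, against 66.4, 468 and 2046 in β-cells) and cd74b (683, 69.6 and 213 in GFPhigh, against 114, 431 and 1199 in β-cells) were not called, with adjusted p = 0.097 and 0.50.

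**Figure D5:**
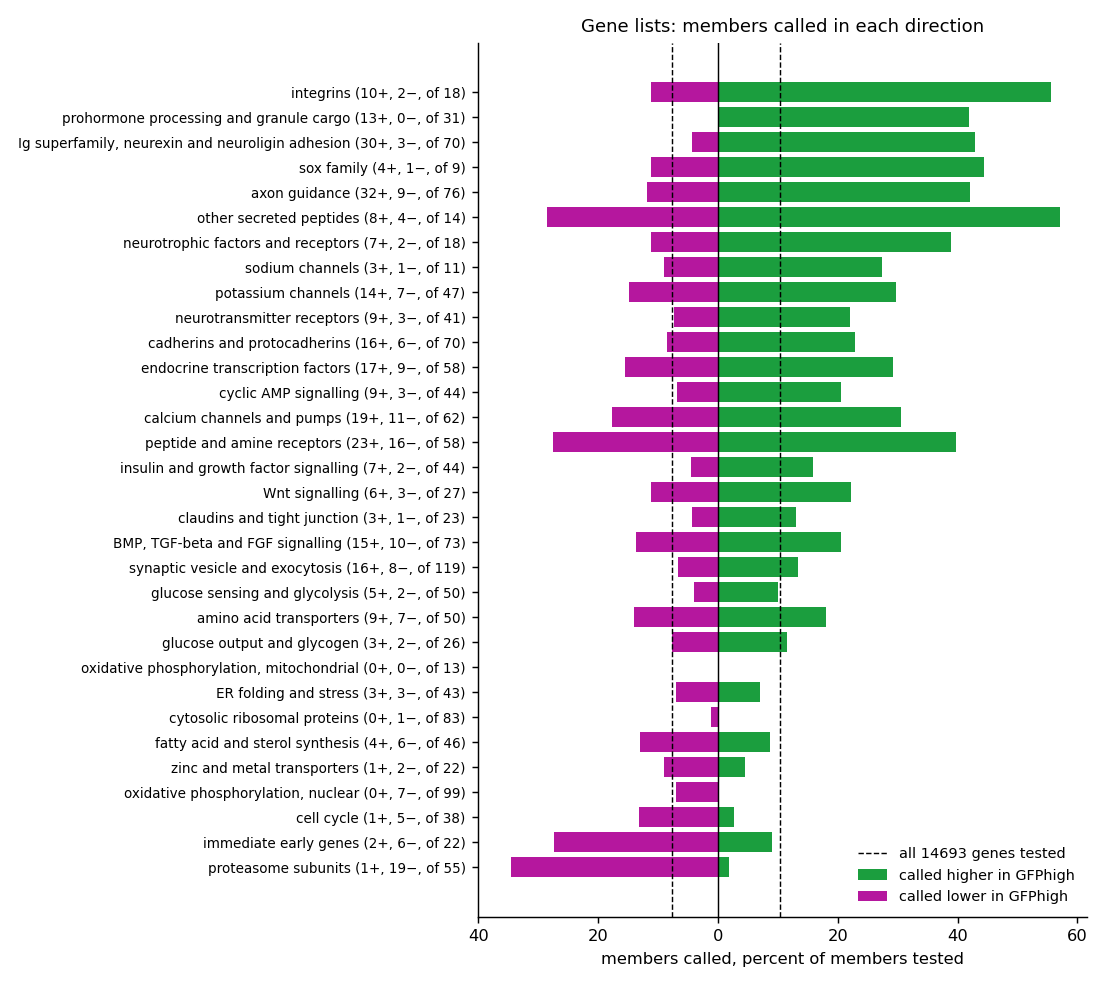
Share of the tested members of each gene list called higher (bars to the right) and called lower (bars to the left) in GFPhigh relative to β-cells, in percent, with dashed lines at 10.4% and 7.70%, the shares over all 14693 genes. Integrins, adhesion genes of the immunoglobulin superfamily, axon guidance and granule cargo extend farthest to the right among lists of over 15 genes, and proteasome subunits farthest to the left.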

How the data were processed

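RNA-seq was done on FACS-sorted islet cells, with cDNA by SMART-Seq2 and Nextera libraries. The authors mapped the reads with STAR to the GRCz11 genome, and the deposited values are raw counts per gene from featureCounts; tool versions are not given in the sources used here. Symbols came from a gene name table that named 29178 of the 31901 IDs. Groups were taken from the sample labels.

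Counts were scaled by TMM to a mean effective library size of 11028827 and fitted in R 4.3.3 with edgeR 4.0.16 (glmQLFit, glmQLFTest) as 1 model of 4 groups over 19 libraries, without covariates. Genes averaging 10 or more normalized counts were tested, p-values were adjusted by Benjamini-Hochberg, and calls needed 0.05 and more than 2-fold. The common dispersion of 0.139 is a biological coefficient of variation of 37.3%. Alternatives used DESeq2 1.42.0, limma 3.58.1 (voom) and other scalings, filters, blocks and left-out libraries. Library sets were libraries with neighbouring library numbers in the deposited names; what the sets share is not stated. The scripts were tested on simulated data.

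Named genes were taken by a rule: all islet hormone and KATP genes, genes the study names for these cells, in each direction the 15 called genes of largest fold at most (mean of at least 100, no overlap), up to 6 per list by smallest p with all called endocrine transcription factors, and the 15 most abundant genes of each group. Of 286 such genes, 161 are named. The members and lists were chosen with earlier results of these data known, and lists are described by counts and medians with no test of a list. A group with no count was given a floor of 3 counts, and folds from that floor use counts pooled over each group. Antisense and overlapping genes, and near-identical copies, cannot be told apart by these counts. One marker list is not reported here.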

Additional observations from a re-analysis of the deposited data

Results flagged for a closer look

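Within the 7 β-cell libraries, 165 quantities were looked at, 161 named genes and 4 library measures, and in 43 of them (26.1%) a single library lay far from the other 6, its gap to the nearest one being larger, as a share of the whole range, than Dixon's critical value at the 95% level. For normally distributed values in a group of this size, chance sets about 1 in 20 apart. The gene values here were untransformed normalized counts, some of them very low. Of the quantities set apart, only foxa1 was set apart by its lowest value. The share of 26.1% therefore cannot be read against 1 in 20, and an excess over chance was not tested. The named genes are also not independent of one another. The 3 GFPhigh libraries are too few for this check.

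β 6 was the library set apart most often, 19 times. It had the highest β-cell value, in normalized counts, of bdnf (27.5), cacna1i (31), cadps2 (1.77), cdh10a (15.07), CHRM4 (42.6), cpne4a (56.7), ESR2 (51.4), gcgra (298), gcnt4a (3.55), gfra1a (40.8), gip (3899), PPP1R3B (3.55), SRD5A2 (50.5), sst1.1 (56604), sst1.2 (2765), SYT10 (27.5) and tgfbr3 (7.98). Its share of counts in sst1.1 was also the highest, at 0.627%, and its foxa1 value (29.3) was the lowest. Most of these genes were called higher in GFPhigh, while gcgra, gip and foxa1 were called lower.

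The other β-cell libraries were set apart 2 to 5 times each. β 1 was highest for epd (1311), fev (744), hhex (5.62), hk2 (23.6) and ptger4c (1.12). β 2 was highest for cacng3b (576), ghrl (1718), HTR4 (2.44) and RXRA (2.44). β 3 was highest for SLC7A14 (117) and vgf (9.17). β 4 stood above the rest for CXCR4 (135), plk1 (8.66) and syn2b (3.47). β 5 stood above the rest for CHRM5 (229), G6PC1 (22.4), neurod1 (10438), pck2 (48.8) and rfx6 (2175). β 7 stood above the rest for foxa (70.8), NPAS4, ENSDARG00000087753 (13.3), pyyb (1606) and rab3c (2523), and had the largest total, 16819976 counts.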

How the results depend on the processing

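Calls were 1525 higher and 1131 lower, with a common dispersion of 0.139. TMM without hormone and mitochondrial genes gave the same calls, but TMM trims extreme genes in any case, so that setting could change little. Both counts stayed within 1.5-fold under DESeq2 size factors, the DESeq2 Wald test (1654 and 1219), limma voom (1443 and 911), other filters or none, the 10 libraries alone (1421 and 974), library sets as a block (1184 and 836), without set F and thinned counts. They were 869 and 2578 with library totals alone, 683 and 328 with the 2-fold limit tested inside the model, and 459 and 235 in library set E alone, which leaves 2 libraries against 2; of those, 447 and 226 were among the 1525 and 1131. Leaving out 1 library gave 1048 to 1686 higher and 630 to 1506 lower, with 1048 and 630 without GFPhigh 2. Set E and the left-out libraries mean fewer samples; otherwise the cause was not tested. Deviations from the group means correlated at -0.0432, -0.044 and 0.0833 in same-numbered GFPhigh and β-cell libraries, and at -0.239 to 0.245 in the other pairs. With so few libraries these values cannot decide whether replicate numbers pair the samples. The replicate block gave 951 and 722 calls.

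Of 3996 pairs of a named gene and an alternative, 3873 kept direction and side of the threshold, 107 lost and 1 (gcga, DESeq2 Wald test) gained a call, and 15 changed sign, all in genes not called. On the log2 scale these were, with library totals alone, ABCC8 -0.0718, kcnj11l -0.35 and scg3 -0.0141; in set E alone, ABCC8 -0.0425 and cd74b 0.0350; with voom, ghrl 1.00; with the replicate block, ghrl 0.33 and kcnj11l -0.0422; and with library sets as a block, kcnj11l -0.11 and pdx1 0.0300. On leaving out 1 library, kcnj11l ranged from -0.0478 to 0.28, below 0 without GFPhigh 1, GFPhigh 2 or β 3, and neurod1 from -0.27 to 0.0528, above 0 without GFPhigh 2 or β 5. Of 148 named genes called, 36 of 145 with a value lost the call in set E alone, 23 with the fold limit in the model, 8 with voom, 8 under the replicate block and 7 of 147 without GFPhigh 2. With 3 GFPhigh libraries, counts under about 10 rest on single libraries.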

Other observations

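Of 8 pancreatic progenitor factor genes tested, 3 rose and 2 fell in GFPhigh relative to β-cells, with a median log2 fold change of 0.36, and 1 fell without β 3 and 1 rose with library totals alone. Of 22 zinc and metal transporter genes, which include carriers that load zinc into insulin granules, 1 rose and 2 fell; 0 to 3 rose on leaving out 1 library, with 0 without β 4 or β 7 and 3 without GFPhigh 1 or GFPhigh 3, and 0 rose with library totals alone. The single mesenchyme marker with enough counts to test was not called, and the summed mesenchyme markers were 25.9 to 41.2 normalized counts in GFPhigh and 5.32 to 37.3 in β-cells.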
